A study of Mus musculus with 24 samples.

Results

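The 10 core genes of the circadian clock, *Arntl*, *Clock*, *Per1*, *Per2*, *Per3*, *Cry1*, *Cry2*, *Nr1d1*, *Nr1d2* and *Dbp*, were followed in whole mouse liver by RNA-Seq. They were chosen by symbol, and their Ensembl identifiers were each found as 1 row among the 56205 genes of the count table. The 24 libraries came from C57BL/6J mice, 12 fed a high-fat diet (FFD) and 12 fed a control diet, all for 20 weeks. Animals of both sexes were used, 6 per diet and sex, but the labels give neither the sex of a library nor an age, and they do not state the time of day at which a liver was taken. No allele or agent other than the diet is given for any animal, and the diet is the only labelled difference between the groups.

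The clock is a loop of transcription and feedback that runs in most cells, hepatocytes included. A dimer of BMAL1 (encoded by *Arntl*) and CLOCK activates the *Per* and *Cry* genes through E-boxes, and PER and CRY proteins then repress that dimer. The same dimer activates *Nr1d1* and *Nr1d2*, whose products, the REV-ERB repressors, act back on *Arntl*, and *Dbp*, whose product activates genes through D-boxes. In mouse liver these transcripts rise and fall over the day, with *Arntl* high when *Dbp*, *Nr1d1* and the *Per* genes are low, so a level depends on the hour of sampling.

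Promoter sequence of 9 of the 10 genes was taken from RefSeq (GRCm38.p6), in 13 windows that cover the 250 bases before an annotated start. *Per2* was without an entry. Windows were searched on both strands for the E-box CACGTG, its variant CACGTT, the D-boxes TTATGTAA and TTACGTAA, the REV-ERB and ROR elements TAGGTCA and TGGGTCA, and the cyclic AMP element TGACGTCA. A match was found in 5 of the 13 windows, each of a different gene (*Per1*, *Per3*, *Cry1*, *Cry2* and *Nr1d1*), and 16.6% of all 32851 windows held at least 1 of the 7 motifs. The 2 promoters shown here belong to *Cry1*, which fell on FFD, and to *Per3*, whose level moved with that of *Dbp* from library to library. Both are written 5′ to 3′ on the strand of the gene, up to the base before the start, with the motifs in capitals.
Cry1, chr10:85185055-85185304, minus strand: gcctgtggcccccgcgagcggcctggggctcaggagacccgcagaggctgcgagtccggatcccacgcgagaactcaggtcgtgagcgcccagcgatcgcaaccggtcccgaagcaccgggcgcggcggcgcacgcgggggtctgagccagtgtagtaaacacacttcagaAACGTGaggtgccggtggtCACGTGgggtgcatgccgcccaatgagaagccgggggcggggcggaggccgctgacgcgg
Per3, chr4:151044666-151044915, minus strand: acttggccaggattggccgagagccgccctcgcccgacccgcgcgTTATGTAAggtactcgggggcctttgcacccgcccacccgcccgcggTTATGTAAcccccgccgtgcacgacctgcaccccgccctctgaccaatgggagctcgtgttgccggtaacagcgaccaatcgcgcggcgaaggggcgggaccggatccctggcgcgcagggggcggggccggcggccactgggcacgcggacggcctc

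The *Cry1* window held the E-box 60 bases and the CACGTT variant 79 bases before the start, the latter on the opposite strand. CACGTG was present in 6.02% of all windows and CACGTT in 3.85%. The *Per3* window held the D-box TTATGTAA at 158 and at 205 bases before the start, and 0.819% of all windows held it. These are matches of letters only, and no binding was measured in these livers.

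Library depth ranged from 14468418 to 22112552 counts. Levels are given as CPM, a library's counts divided by its total and brought to a common library size, with totals scaled by the trimmed mean of M values (TMM). The scaling factor was 0.994 to 1.34 in the FFD libraries and 0.679 to 1.01 in the controls, so that it moved with the diet. Scaled to plain library totals, the median log2 fold change of all 17913 genes tested was 0.26 in place of -0.03. Calls of the clock genes over all 24 libraries that depend on the scaling are given both ways, while fits within a set of libraries used TMM only. Control replicate 10 stood apart, with the lowest depth and factor. *Xist*, the RNA of the inactive X chromosome, was above 1000 counts in 12 libraries (replicates 1 to 6 of each diet) and at no more than 3 counts in the other 12, so each diet held 6 libraries of either set. Among markers of the liver's cells, hepatocyte genes were at 36034 to 90812 summed CPM on FFD and 81391 to 129246 in controls, with 4 of 6 called lower (median log2 fold change -0.67). With library totals only *Cps1* of the 6 was called lower, and their median was -0.38. In this bulk tissue, fewer cells of a type and less RNA per cell cannot be told apart, and the part of these markers in the clock results was not tested.

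A gene was called changed where edgeR's quasi-likelihood fit gave a log2 fold change beyond 0.5 in either direction and an adjusted p no higher than 0.01 (Benjamini-Hochberg, over all genes tested). All 10 clock genes passed the filter on low counts. On FFD, 2 of the 10 were called lower (*Cry1* and *Nr1d2*) and 0 were called higher, while 8 were not called. Of all genes tested, 4.99% were called lower and 13.2% higher. The log2 fold change was below 0 for 8 of the 10 and for 52.8% of all genes. The median of the 10 was -0.41 against -0.03 for all genes. At an unadjusted p under 0.05, 6 clock genes were lower and 1 (*Arntl*) was higher. At an adjusted p of at most 0.05 with no fold threshold, 4 were lower (*Clock*, *Cry1*, *Cry2* and *Nr1d2*) and 0 higher, when 18.9% of all genes were lower by that rule. The unadjusted rule is looser, so at least 18.9% of all genes were lower by it and at least 3709 genes were higher. The exact shares were not counted. Scaled to library totals, 1 clock gene was called higher (*Arntl*) and 0 were called lower. By that fit 3827 of the 17913 genes tested were called higher and 226 lower. The median of the 10 was then -0.15 against 0.26 for all genes. Relative to the median of all genes, the median of the 10 was -0.38 with TMM scaling and -0.41 with library totals.

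**Figure D1:**
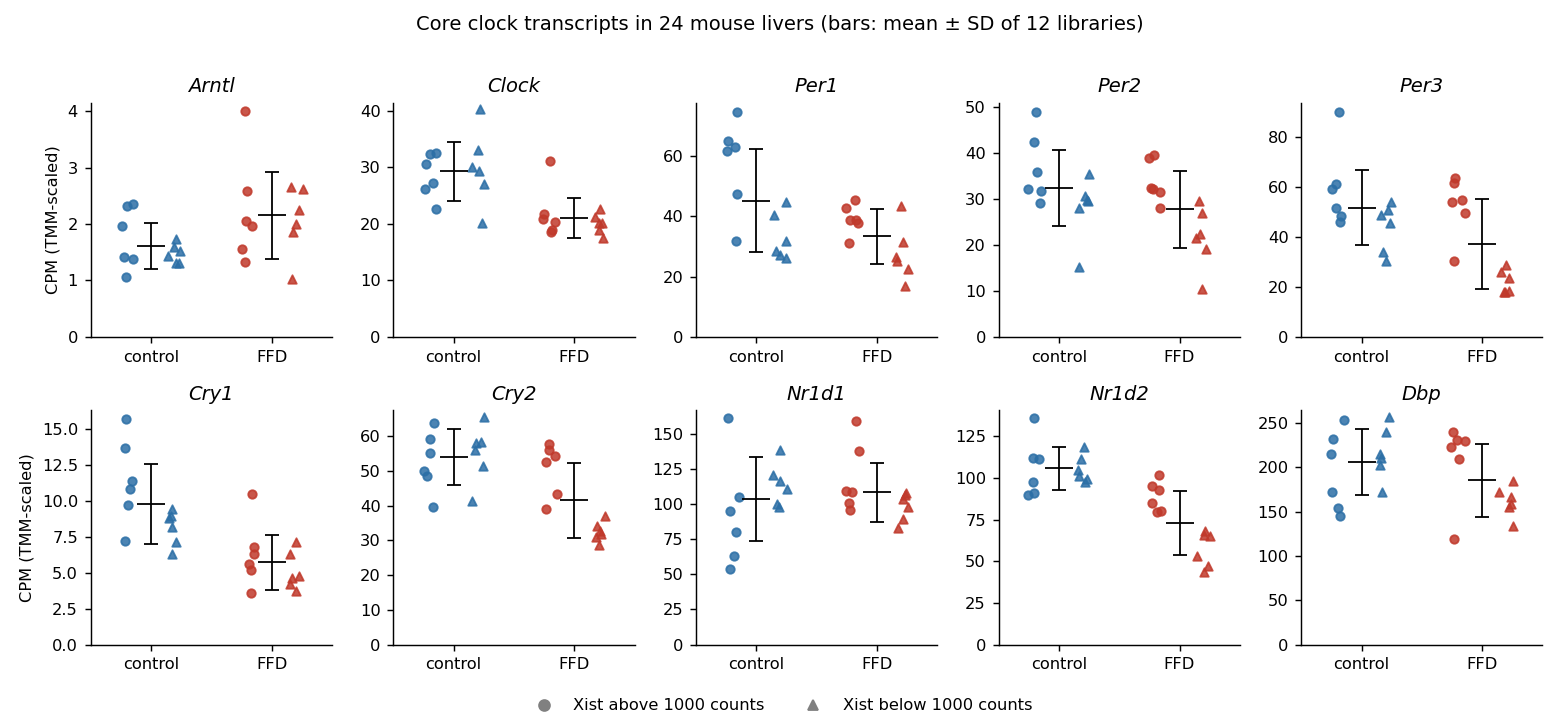
CPM (TMM-scaled) of each core clock gene in every library, by diet, with circles for libraries with Xist above 1000 counts and triangles for those below, and bars for the mean ± SD of 12 libraries. Nr1d2 lies at 43.5 to 101.9 CPM on FFD and 90.0 to 136.0 in controls, and the FFD triangles of Per3, Cry2 and Nr1d2 lie below every control triangle.

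Per kilobase of annotated exon, the control livers held the clock transcripts in the order *Dbp*, *Nr1d1*, *Nr1d2*, *Cry2*, *Per1*, *Per2*, *Per3*, *Cry1*, *Clock* and *Arntl*. *Dbp* stood at 68.8 ± 12.5 CPM per kb (SD, n = 12) and *Arntl* at 0.214 ± 0.0538. The order of the means was the same on FFD, where *Dbp* was at 61.9 ± 13.6 and *Arntl* at 0.287 ± 0.102. Not every neighbour in this order was apart. In controls *Cry2* exceeded *Per1* in 7 of 12 libraries and *Per2* exceeded *Per3* in 6 of 12, so these pairs were not separated beyond their spread. On FFD, *Cry1* exceeded *Clock* in only 7 of 12 libraries, against 11 of 12 in controls. The step with the widest gap was the last, where *Clock* was 9.94 times as high as *Arntl* in controls and 5.34 times on FFD.

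Neither of the activators of the loop, *Arntl* and *Clock*, was called across all 24 libraries. *Arntl* (chr7:113207465-113314126, GRCm38) ranged from 1.03 to 4.0 CPM on FFD, with a median of 2.03, and from 1.06 to 2.35 in controls, with a median of 1.47. The groups overlapped, with 10 of 12 FFD libraries above the control median and 4 above the highest control. Its log2 fold change of 0.42 (SE 0.18) had an adjusted p of 0.0736 and was not called, and it rests on few reads, 14 to 75 per library. With library totals it was 0.70 (adjusted p = 0.00502) and called higher. *Clock* (chr5:76209868-76304792) ranged from 17.4 to 31.2 CPM on FFD, with a median of 20.3, and from 20.2 to 40.2 in controls, with a median of 29.7. All FFD libraries but replicate 3 lay below the control median, and 4 lay below every control. The log2 fold change of *Clock* was -0.48 (SE 0.10, adjusted p = 0.000391), which passed the p threshold and stayed just short of the fold threshold. With library totals it was -0.20 (adjusted p = 0.142). With TMM scaling *Clock* was called lower without FFD replicate 3 (-0.54), control replicate 6 (-0.51) or control replicate 10 (-0.52).

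The ratio of 2 genes within a library does not depend on how libraries are scaled. The ratio of *Arntl* to *Clock* ranged from 0.0486 to 0.129 on FFD, with a median of 0.103, and from 0.0429 to 0.0768 in controls, with a median of 0.0520. It was above every control in 10 of 12 FFD livers. The difference in mean log2 ratio was 0.85 (permutation test, two-sided, p = 9e-05, adjusted p = 0.00027 over the 3 ratios computed, which were chosen after levels were seen). It was 0.72 among the libraries with *Xist* above 1000 counts and 0.97 among those below (exact permutation p = 0.00866 in each, 6 against 6). *Npas2*, which encodes a relative of CLOCK that also pairs with BMAL1, rose on FFD by a log2 fold change of 2.22 (SE 0.46, adjusted p = 0.000508). It had only 3 to 29 counts per library on FFD and 0 to 9 in controls, so the size of the change is imprecise. All 12 FFD livers lay above the control median, but that median was 0.103 CPM, under the 0.118 to 0.305 CPM that 3 counts stand for. *Arntl2*, the *Arntl* paralogue, had a log2 fold change of 0.78 (adjusted p = 0.0726) and was not called.

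The *Per* genes encode the subunits that carry CRY proteins into the nucleus, and none of the 3 was called across all 24 libraries. *Per1*, which also answers to acute signals such as glucocorticoids and cyclic AMP, ranged from 17.0 to 45.4 CPM on FFD, with a median of 34.7, and from 26.2 to 74.8 in controls, with a median of 42.7. The groups overlapped, with 10 of 12 FFD livers below the control median. Its log2 fold change was -0.44 (SE 0.19, adjusted p = 0.0614). *Per2* overlapped widely, at 10.4 to 39.5 CPM on FFD with a median of 28.8, and 15.2 to 49.0 in controls with a median of 31.2 (log2 fold change -0.23, SE 0.17, adjusted p = 0.293). The lowest *Per2* level of either diet was in FFD replicate 9 or control replicate 10, the libraries with the highest and lowest scaling factor. *Per3* ranged from 17.9 to 63.5 CPM on FFD, with a median of 29.7, and from 30.4 to 90.0 in controls, with a median of 49.8. On FFD 6 livers lay below every control, the closest at 28.8 CPM against 30.4, and the other 6 lay within the control range. Its log2 fold change of -0.47 (SE 0.22) had an adjusted p of 0.0886, and in a fit that also held the set of each library it was -0.58 (adjusted p = 0.00325) and called lower.

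*Cry1* and *Cry2* encode the cryptochromes, the main repressors of the BMAL1 and CLOCK dimer. *Cry1* (chr10:85131700-85185064) ranged from 3.58 to 10.4 CPM on FFD, with a median of 5.38, and from 6.31 to 15.7 in controls, with a median of 9.20. All FFD livers but replicate 3 lay below the control median, and 8 of 12 lay below every control. *Cry1* fell by 0.78 on the log2 scale (SE 0.17, adjusted p = 0.00063), to 58.4% of the control level. With library totals the value was -0.51 (adjusted p = 0.0161), no longer called, against a median of 0.26 for all genes. *Cry2* (chr2:92403646-92434043) ranged from 28.6 to 57.9 CPM on FFD, with a median of 38.0, and from 39.6 to 65.6 in controls, with a median of 55.6. Of the FFD livers, 7 lay below every control and 2 above the control median. Its log2 fold change was -0.38 (SE 0.12, adjusted p = 0.0151), short of both thresholds, and -0.11 with library totals (adjusted p = 0.448). The ratio of *Cry1* to *Cry2* was 0.0661 to 0.268 on FFD and 0.122 to 0.345 in controls, with medians of 0.140 and 0.166, and the difference of -0.38 in mean log2 ratio was not past the threshold (permutation p = 0.0775).

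*Nr1d1* and *Nr1d2*, the REV-ERB genes, parted. *Nr1d2* (chr14:18204054-18239127) ranged from 43.5 to 101.9 CPM on FFD, with a median of 73.9, and from 90.0 to 136.0 in controls, with a median of 102.8. All 12 FFD livers lay below the control median and 9 lay below every control. The log2 fold change was -0.53 (SE 0.12, adjusted p = 0.00106), close to the fold threshold. Without FFD replicate 7, 9 or 10 or control replicate 4 it came to -0.49, -0.47, -0.48 and -0.50 and was not called, and with library totals it was -0.27 (adjusted p = 0.0349). *Nr1d1* (chr11:98767932-98775333) ranged from 82.5 to 159.0 CPM on FFD, with a median of 104.8, and from 53.6 to 161.0 in controls, with a median of 102.5. No FFD liver lay outside the control range, and the log2 fold change was 0.06 (SE 0.14, adjusted p = 0.749). With library totals the *Nr1d1* value was 0.35 (adjusted p = 0.0425), not called. The exons of *Nr1d1* overlap those of *Thra*, on the opposite strand, over 8.55% of their length, and it is not stated whether counting used the strand.

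The ratio of *Nr1d2* to *Nr1d1* was 0.403 to 0.933 on FFD, with a median of 0.728, and 0.607 to 2.54 in controls, with a median of 0.981. All 12 FFD livers lay below the control median, and 4 lay below every control. The difference in mean log2 ratio was -0.68 (permutation p = 0.00093, adjusted p = 0.0014 over the 3 ratios). It was -0.66 among the libraries with *Xist* above 1000 counts (exact permutation p = 0.0693) and -0.69 among those below (exact permutation p = 0.00216, the smallest that 6 against 6 allows). *Rora*, which encodes an activator that competes with REV-ERB for the same element, fell by 0.52 on the log2 scale (adjusted p = 0.000573), and with library totals it was at -0.25 (adjusted p = 0.0606) and not called. *Ciart*, which encodes a further repressor of the BMAL1 and CLOCK dimer, fell by 1.16 (SE 0.25, adjusted p = 0.000629), with 6 FFD livers below every control, and was also called lower with library totals (-0.89).

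**Figure D2:**
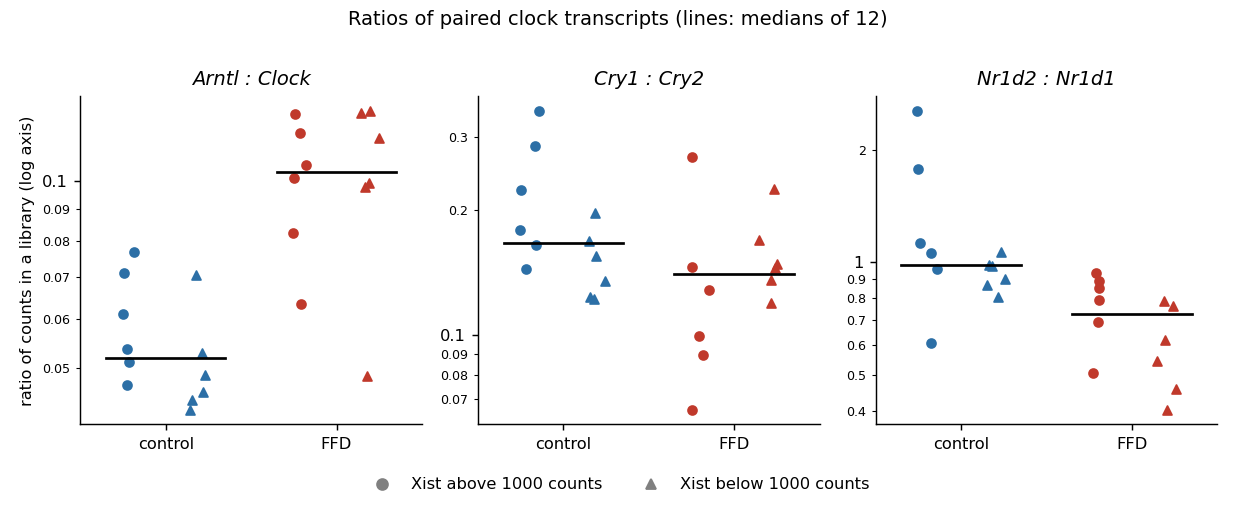
Ratios of the counts of Arntl to Clock, Cry1 to Cry2 and Nr1d2 to Nr1d1 in each library, on a log axis, by diet, with circles and triangles for Xist above and below 1000 counts and lines at the medians of 12. The Arntl to Clock ratio is above every control in 10 of 12 FFD livers, and the Nr1d2 to Nr1d1 ratio is below the control median in all 12.

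*Dbp*, the D-box activator and the member with the highest level, ranged from 119.4 to 240.4 CPM on FFD, with a median of 177.9, and from 145.2 to 257.3 in controls, with a median of 212.6. The groups overlapped over most of their range, with 8 of 12 FFD livers below the control median. Its log2 fold change was -0.15 (SE 0.12, adjusted p = 0.330), and it turned to 0.13 with library totals. The exons of *Dbp* overlap those of *Sphk2* on the opposite strand over 18.0% of their length. Its relatives *Tef* and *Hlf*, which bind the same element, passed the p threshold but not the fold threshold (log2 fold change -0.40, adjusted p = 0.00338 and -0.48, adjusted p = 0.00504), and all 12 FFD livers lay below the control median for both. With library totals *Tef* was at -0.13 and *Hlf* at -0.23, and neither was called. *Nfil3*, the repressor that opposes them at the D-box, was at -0.16 (adjusted p = 0.399), and at 0.13 with library totals (adjusted p = 0.391).

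The diet effect was then read within each set of 6 against 6 libraries, with TMM scaling only. In the scaling of all 24 libraries, the factor was 1.12 to 1.34 on FFD and 0.679 to 0.956 in controls where *Xist* was below 1000 counts. Where it was above, the factor was 0.994 to 1.06 on FFD and 0.892 to 1.01 in controls. Among the libraries with *Xist* above 1000 counts, 0 clock genes were called, when 0.882% of all genes were called lower. At an unadjusted p under 0.05 in the same edgeR test, 4 were lower there (*Clock*, *Per1*, *Cry1* and *Nr1d2*). The share of all genes lower by that rule was not counted, so this count has no background to be read against. Among those with *Xist* below 1000 counts, 5 were called lower (*Clock*, *Per3*, *Cry1*, *Cry2* and *Nr1d2*) and 0 higher, when 7.99% of all genes were called lower and 14.4% higher. FFD and control libraries did not overlap for *Per3*, *Cry2* and *Nr1d2* in that set, with FFD lower in each, as for 9.66% of all genes. In the set above, no clock gene was without overlap, against 2.39% of all genes with FFD under control. Markers of the liver's cells also differed by set. Hepatocyte markers were called lower for 5 of 6 in the set below (median log2 fold change -0.96) and 1 of 6 in the set above (-0.43), and macrophage markers higher for 6 of 9 (2.52) and 4 of 9 (0.63). The summed hepatocyte level was 36034 to 47082 CPM on FFD and 81391 to 97266 in controls below, and 67469 to 90812 and 93804 to 129246 above. Their part in the difference between the sets was not tested.

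*Nr1d2* was at 43.5 to 68.1 CPM on FFD and 97.9 to 118.5 in controls among libraries with *Xist* below 1000 counts, a log2 fold change of -0.87 (SE 0.12, adjusted p = 7.4e-05). Among those above, it was at 79.8 to 101.9 and 90.0 to 136.0, a log2 fold change of -0.25 (SE 0.11, adjusted p = 0.147). *Cry2* was at 28.6 to 37.1 CPM against 41.5 to 65.6 below, and at 39.0 to 57.9 against 39.6 to 63.8 above. The *Cry2* ranges were thus apart in the one set and overlapped nearly in full in the other, with log2 fold changes of -0.74 (adjusted p = 0.000153) and -0.05 (adjusted p = 0.825). *Per3* was at 17.9 to 28.8 CPM against 30.4 to 53.8 below, and at 30.5 to 63.5 against 46.1 to 90.0 above, with log2 fold changes of -0.98 (adjusted p = 0.000409) and -0.17 (adjusted p = 0.570). *Cry1* did not show that contrast, at -0.66 below (adjusted p = 0.0073) and -0.84 above (adjusted p = 0.0207).

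The difference of the diet effect between the sets was tested by an interaction term, which had an adjusted p of at most 0.01 for 4.06% of all genes. Of the clock genes only *Cry2* met that threshold, with a difference of -0.70 (SE 0.17, adjusted p = 0.00906), and with library totals or with DESeq2 size factors it did not. *Nr1d2* (-0.63, adjusted p = 0.0145), *Per3* (-0.81, adjusted p = 0.0434), *Nr1d1* (-0.57, adjusted p = 0.180) and *Dbp* (-0.51, adjusted p = 0.137) stayed short of it. With library totals these differences were smaller, at -0.29 for *Nr1d2* (adjusted p = 0.204) and -0.47 for *Per3* (adjusted p = 0.242). *Nr1d1* was then at -0.19 (adjusted p = 0.682) and *Dbp* at -0.14 (adjusted p = 0.705). *Bhlhe41*, which encodes the repressor DEC2, had no effect past the threshold over all libraries (log2 fold change 0.25, adjusted p = 0.565). It was higher on FFD where *Xist* was above 1000 counts (1.81, adjusted p = 0.000382) and lower where it was below (-0.57, adjusted p = 0.00487), a difference of -2.39 (adjusted p = 1.62e-05). Its mean level was 1.91 CPM in controls and 6.73 on FFD in the set above, and 8.69 in controls and 5.79 on FFD in the set below. Its paralogue *Bhlhe40* was at -0.26 over all libraries (adjusted p = 0.00879), short of the fold threshold, and at 0.02 with library totals (adjusted p = 0.849).

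**Figure D3:**
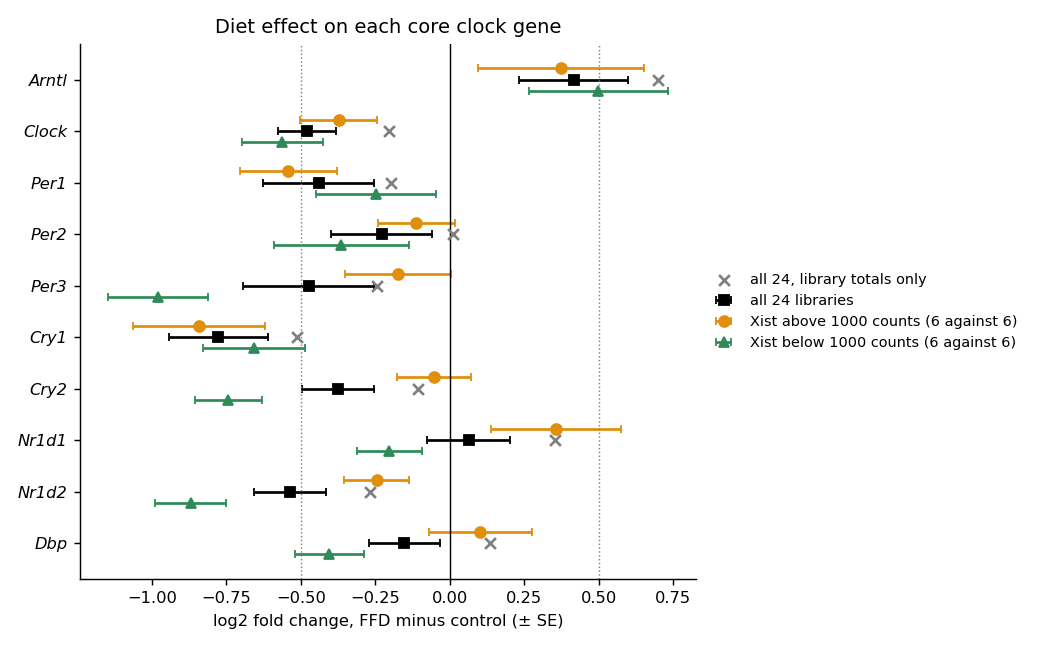
Log2 fold change (FFD minus control) of each core clock gene with its SE, for all 24 libraries (squares), for the sets with Xist above (circles) and below 1000 counts (triangles), and for all 24 with library totals only (crosses, without error), with dotted lines at the fold threshold of 0.5. Cry2, Nr1d2 and Per3 lie at -0.74, -0.87 and -0.98 in the set below and at -0.05, -0.25 and -0.17 in the set above.

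Since these transcripts oscillate, the variation between animals of a group was a readout of its own. The SD of log2(CPM + 1) within diet and set was between 0.20 (*Nr1d2*) and 0.37 (*Per2*), against a median of 0.23 over the 11173 genes with a mean of at least 50 counts. *Per2* lay at the 84.4th percentile of those genes and *Nr1d2* at the 33.7th. The mean absolute deviation from the median of a diet and set was compared between diets for each gene. For *Nr1d1* it was 0.157 on FFD and 0.281 in controls, the pair with the lowest p (permutation test, two-sided, p = 0.154). None of the 10 differed between diets by that test, 0 of them at an unadjusted p under 0.05.

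Relations between clock genes were examined across the 24 libraries after the mean of each diet and set was subtracted, in 8 pairs. The points share library depth and scaling, and p-values come from permutations within diet and set, adjusted over 16 values. *Dbp* and *Per3* rose and fell together (r = 0.70, adjusted p = 0.0148, rho = 0.54, adjusted p = 0.0221), and r was 0.86 within FFD and 0.53 within controls. *Per1* and *Per2* did so too (r = 0.62, adjusted p = 0.0184, rho = 0.60, adjusted p = 0.017), as did *Arntl* and *Clock* (r = 0.57 and rho = 0.62, adjusted p = 0.0148 for both). With the 2 libraries most distant from the first gene's median left out, these values of r were 0.58 (permutation p = 0.0152), 0.65 (permutation p = 0.00194) and 0.55 (permutation p = 0.00091).

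*Arntl* and *Dbp*, which peak at opposite times of day, went in opposite directions (r = -0.60, adjusted p = 0.0287), but rho was -0.46 (adjusted p = 0.0901). Without FFD replicates 3 and 8, r came to -0.46 (permutation p = 0.071), no longer past the threshold, and r was -0.70 within FFD and -0.45 within controls. *Arntl* showed no relation past the threshold with *Nr1d1* (r = -0.05, rho = -0.06, adjusted p = 0.830 for both) or with *Cry1* (r = 0.19, adjusted p = 0.581, rho = 0.09, adjusted p = 0.806). The same held for *Nr1d1* and *Nr1d2* (r = -0.35, adjusted p = 0.219, rho = -0.28, adjusted p = 0.298) and for *Per2* and *Cry2* (r = 0.34, adjusted p = 0.140, rho = 0.38, adjusted p = 0.139).

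**Figure D4:**
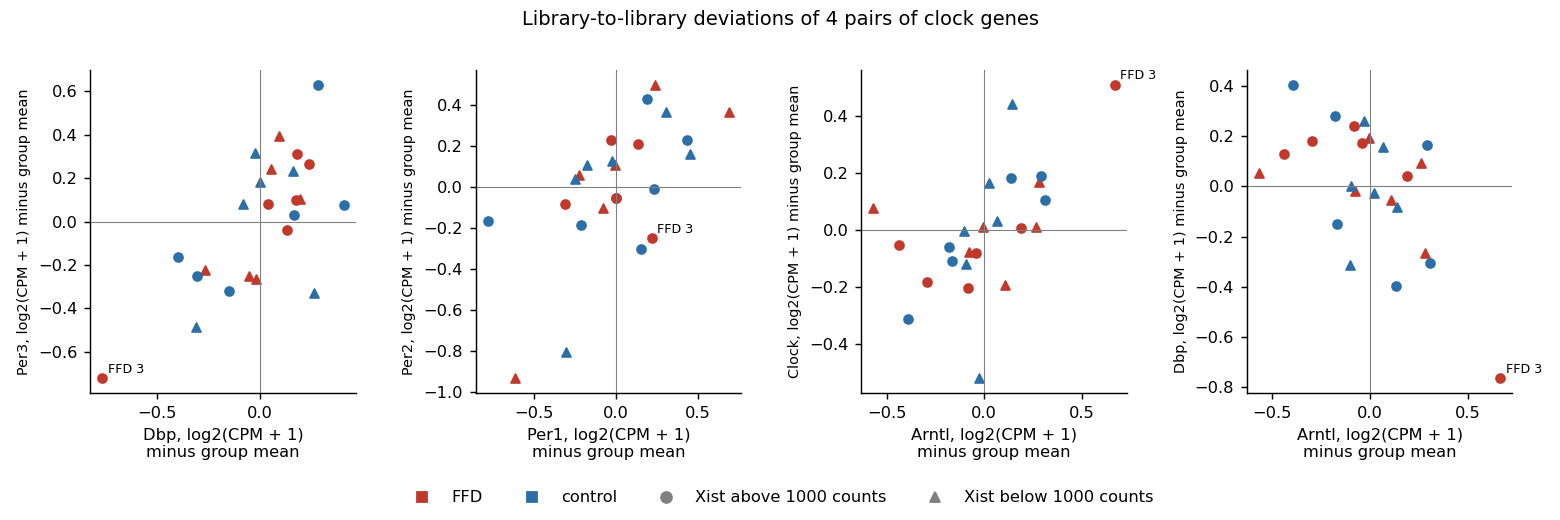
Deviation of log2(CPM + 1) from the mean of its diet and set for Dbp and Per3, Per1 and Per2, Arntl and Clock, and Arntl and Dbp, 1 point per library, red for FFD, blue for control, circles and triangles for Xist above and below 1000 counts. Pearson r is 0.70, 0.62, 0.57 and -0.60 in that order, and FFD replicate 3 lies at an end of the range for Dbp and for Arntl.

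FFD replicate 3 was at an extreme for several clock genes at once. It had the highest level of the 12 FFD livers for *Arntl* (4.0 CPM), *Clock* (31.2), *Per1* (45.4) and *Cry1* (10.4), and the lowest for *Dbp* (119.4). The other 5 FFD livers with *Xist* above 1000 counts were at 1.32 to 2.59 CPM for *Arntl*, 18.6 to 21.7 for *Clock*, 31.1 to 42.7 for *Per1*, 3.58 to 6.76 for *Cry1* and 209.3 to 240.4 for *Dbp*. Its *Per3* level of 30.5 CPM was also below theirs, which were 49.7 to 63.5. Without this library, *Clock* fell by 0.54 on the log2 scale and was called. The same library held 155 CPM of the neutrophil markers in sum, where the other 11 FFD livers held 1.19 to 3.43, and its hepatocyte sum of 90812 CPM was the highest on FFD. The part of these markers in its clock levels was not tested.

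The genes whose library-to-library pattern was most like that of a clock gene were found by Pearson's r over the 24 libraries, among genes with a mean of at least 50 counts, as a description. *Per3* was most like *Tef* (r = 0.89), a relative of *Dbp* that binds D-boxes, and then *Gab1* (r = 0.82). *Dbp* was most like *Serpina6* (r = 0.85), which encodes the corticosteroid-binding globulin, and *Izumo4* (r = 0.82). *Per1* was closest to *Zfp292* (r = 0.92) and *Tob2* (r = 0.86), and *Per2* to *Wwp1* (r = 0.91) and *Pank3* (r = 0.90). For *Nr1d2* these were *Azin1* (r = 0.93), which encodes antizyme inhibitor, and *Fnip1* (r = 0.87), and for *Nr1d1* they were *Mapk15* and *Cxxc5* (r = 0.80 each). *Cry2* went with *Ikbkb* and *Slc38a3* (r = 0.90 each), *Cry1* with *Osbpl11* (r = 0.79) and *Atl2* (r = 0.78), *Clock* with *Cdc27* (r = 0.87) and *Trappc10* (r = 0.86), and *Arntl* with *Agps* (r = 0.78) and *Car14* (r = 0.75). No clock gene was thus among the closest 2 of another, but *Arntl*, with a mean of 36.7 counts, was under the limit of 50 and could not be a partner. The most opposed genes were *Golt1b* for both *Per3* and *Cry2* (r = -0.84 each), *Clca3a1* for *Dbp* (-0.84), *Mcrs1* for *Per2* (-0.83), *Tstd1* for *Clock* (-0.82), *Arl8b* for *Nr1d1* (-0.82), *Pmp22* for *Nr1d2* (-0.81), *Lipt2* for *Per1* (-0.75), *Cntfr* for *Arntl* (-0.72) and *Smad6* for *Cry1* (-0.70). Across the 45 pairs of clock genes the same r was positive for 29 and had a median of 0.16, and it was highest for *Per3* and *Cry2* (r = 0.78).

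Genes that act on or follow the clock were read from lists beside the 10. Of the 8 other transcription factors of the loops, 7 passed the filter, 1 was called higher (*Npas2*) and 2 lower (*Rora* and *Ciart*). Of *Tef*, *Hlf* and *Nfil3*, 0 were called, and 2 were lower at an unadjusted p under 0.05 by edgeR, as were at least 18.9% of all genes. Among the kinase genes that act on clock proteins, *Csnk1e*, a casein kinase that phosphorylates PER, had a log2 fold change of 0.49 (adjusted p = 0.000702) just short of the fold threshold, and was called higher with library totals (0.78, adjusted p = 0.000148). Of 4 corepressors and deacetylases, *Sirt1*, the NAD-dependent deacetylase, was called lower (-0.57, adjusted p = 0.000977) and the other 3 were not called. With library totals *Sirt1* was at -0.29 (adjusted p = 0.0434) and not called.

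Of 15 output genes of the liver clock, 1 was called higher and 2 lower. *Cdkn1a*, the cell cycle inhibitor p21, rose from 0.460 to 16.8 CPM in controls, with a median of 2.57, to 8.48 to 35.6 on FFD, with a median of 20.5. All 12 FFD livers were above the control median (log2 fold change 2.18, SE 0.39, adjusted p = 9.21e-05). *Gys2*, the liver glycogen synthase, was lower in 10 of 12 FFD livers than in any control (-0.58, adjusted p = 6.32e-05), but was at -0.29 and not called with library totals (adjusted p = 0.0279). *Avpr1a*, the vasopressin receptor, fell by 1.59 on the log2 scale (adjusted p = 9.67e-05), and was also called lower with library totals (-1.34). *Elovl3*, a fatty acid elongase whose level differs between the sexes in mouse liver, was not called over all libraries (-1.68, adjusted p = 0.0719), but it was higher on FFD where *Xist* was above 1000 counts (2.88, adjusted p = 6.9e-06) and lower where it was below (-2.12, adjusted p = 1.97e-05). The difference was -5.01 (adjusted p = 3.37e-09).

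Lists of genes that answer to body temperature and to glucocorticoids, which can both set the liver clock, were read as further lists, against the 13.2% of all genes called higher and 4.99% called lower. Of 8 temperature-responsive genes 3 were called higher, the heat shock genes *Hspb1* (log2 fold change 1.85, adjusted p = 4.53e-06), *Hspa1a* (1.58, adjusted p = 0.00113) and *Hspa1b* (0.75, adjusted p = 0.0052). *Hspa1a* and *Hspa1b* are near-identical copies, so their split of reads is uncertain. The cold-inducible genes *Cirbp* (-0.24, adjusted p = 0.204, and 0.09 with library totals) and *Rbm3* (0.07, adjusted p = 0.722) were not called. Of 7 glucocorticoid-responsive genes, *Errfi1* was called lower (-0.85, adjusted p = 0.00494), 6 of 7 were below 0 and the median was -0.53. With library totals 0 of the 7 were called (*Errfi1* -0.58, adjusted p = 0.0348), and the median was -0.28. Without FFD replicate 3 *Fkbp5*, *Tsc22d3* and *Klf9* were called lower too, 4 of 7 in all, with a median of -0.72. The 2 lists were not tested against each other.

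**Figure D5:**
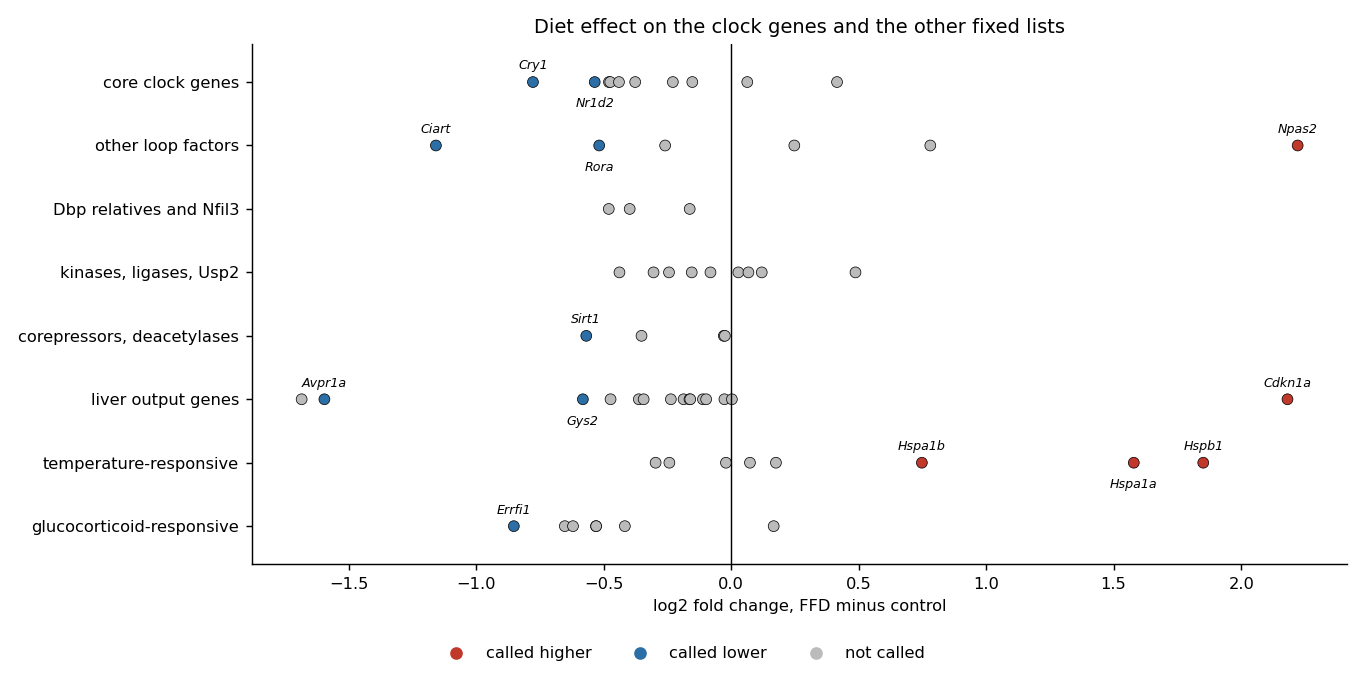
Log2 fold change (FFD minus control) of the core clock genes and of the 7 other lists, 1 dot per gene reported, red for called higher, blue for called lower and grey for not called, with the called genes named. Ciart lies at -1.16 and Npas2 at 2.22, while the core clock genes lie between -0.78 and 0.42.

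Several markers of other liver cells were higher on FFD. Of 10 stellate cell and myofibroblast markers 7 were called higher (summed level 405 to 1007 CPM on FFD and 165 to 478 in controls), and of 9 macrophage markers 6 (318 to 649 and 92.8 to 388 CPM). The 3 macrophage markers not called were *Clec4f* (log2 fold change 0.20), *Vsig4* (0.38) and *Timd4* (-0.74). *Clec4f* had the highest mean of the 9, at 146.6 CPM on FFD and 127.2 in controls. Higher calls were also made for 4 of 5 cholangiocyte markers (31.6 to 881 CPM on FFD and 27.3 to 131.0 in controls), 3 of 3 neutrophil markers tested (1.19 to 155 and 0.288 to 1.94 CPM) and 1 of 6 endothelial markers (148 to 334 and 128 to 279 CPM). The endothelial markers were mixed. At an adjusted p of at most 0.05 with no fold threshold, 3 were higher and 2 lower (*Kdr* at -0.26, adjusted p = 0.0404, and *Clec4g* at -0.47, adjusted p = 0.0388). Single libraries set the upper end of the neutrophil and cholangiocyte ranges. Without FFD replicate 3, whose neutrophil sum was 155 CPM, the other FFD libraries reached 3.43 CPM, 2 of the 3 neutrophil markers were called higher and their median log2 fold change was 1.004 in place of 3.79. The endothelial call (*Stab2*) was lost without it. Without FFD replicate 9, whose cholangiocyte sum was 881 CPM, the other FFD libraries reached 514 CPM, 4 of 5 cholangiocyte markers were still called higher and their median was 1.70 in place of 2.62. These markers also differed by set, with 4 of 5 called higher where *Xist* was below 1000 counts and 0 where it was above. Their FFD sums were 258 to 881 CPM in the set below and 31.6 to 176 CPM in the set above. The cholangiocyte sums mostly follow *Spp1*, which had a mean of 267.7 CPM on FFD and 43.5 in controls over all libraries. *Krt19*, *Krt7*, *Epcam* and *Sox9* had means of only 4.64 to 10.4 CPM on FFD. None of the 5 T cell markers (2.12 to 6.13 and 0.623 to 8.17 CPM) or the 4 B cell markers (2.43 to 10.4 and 2.07 to 9.68 CPM) was called by edgeR over all libraries, with 1 and 0 of them higher at an unadjusted p under 0.05. In the set below, 3 T cell markers (median log2 fold change 1.42) and 1 B cell marker (1.08) were called higher. In the set above 0 of either list were called (medians -0.38 and -0.32). The hepatocyte markers *Alb* (-0.72), *Ttr* (-0.62), *Apoa1* (-0.74) and *Cps1* (-0.99) were called lower, against -0.78 for *Cry1* and -0.53 for *Nr1d2*. With library totals *Alb* (-0.48), *Ttr* (-0.32) and *Apoa1* (-0.43) were not called and *Cps1* (-0.73) was. Their part in the levels of the clock genes was not tested.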

How the data were processed

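Liver RNA was extracted with Trizol and sequenced as poly(A)-selected libraries. The counts deposited by the authors are whole numbers per Ensembl gene, without normalization. The submitters' processing notes name bcl2fastq, STAR 2.7.3a and mm10; the counting program, its annotation and its use of strand are not given in the sources used here. Symbols came from GENCODE M21 (51745 of 56205 identifiers), as did exon lengths and overlaps, and this may differ from the annotation used for counting. Columns were matched to libraries by title and to diets by label. Nothing in the labels says more of the source of each library than its number, so p-values measure the spread between libraries.

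Genes were tested where 12 or more libraries held 1 or more counts, with edgeR 4.0.16 (quasi-likelihood, TMM, diet only) under R 4.3.3. Single genes, spreads and correlations used log2(CPM + 1), a pseudocount of 1, and ratios the log2 of the ratio of counts without a pseudocount, with two-sided permutation tests with 100000 resamples (exact within a set; SciPy 1.17.1, NumPy 2.4.6). DESeq2 1.42.0 and limma 3.58.1 served as alternatives. The statistics were tested on simulated data. The genes and lists were chosen with earlier results of these data known, so they give no independent support. The genes named from each list were those called, together with the transcription factor and D-box genes, except for results not reported here; other genes named from the lists (*Csnk1e*, *Elovl3*, *Cirbp*, *Rbm3*, *Fkbp5*, *Tsc22d3*, *Klf9*) were chosen after their values were seen, as were the marker and glucocorticoid lists read without 1 library. For each clock gene the 2 genes most like it and the 1 most opposed are given. The rest of the series was not analysed here.

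Depth of 14468418 to 22112552 counts put 3 counts at 0.118 to 0.305 CPM. Libraries of a diet differed by more than sampling noise (lowest chi-square per degree of freedom 10.1 on FFD and 18.3 in controls). Replicate numbers are shared between diets, and same-numbered libraries deviated together (correlation over 0.1) in 11 of 12 cases, -0.0935 to 0.541 in all. Libraries with the same number also belonged to the same set by *Xist* in both diets. These correlations therefore cannot tell pairing from a shared set, and they do not decide whether the numbers mark pairs. The labels name no pairs, so the main fit did not use the numbers, and a fit with the replicate as a block is given below.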

Additional observations from a re-analysis of the deposited data

Results flagged for a closer look

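The diet effect on *Cry2* differed between the libraries with *Xist* below and above 1000 counts by -0.70 on the log2 scale (interaction adjusted p = 0.00906 by edgeR). It was the only clock gene to meet that threshold, and it did not meet it with library totals (-0.35, adjusted p = 0.191).

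In 40 groups of 6 libraries (10 genes, by diet and set), 4 held a library far from the others by Dixon's test at the 95% level, where chance flags about 1 in 20. *Clock* in FFD replicate 3 was at 31.2 CPM, with the next liver of its group at 21.7. *Dbp* in the same library was at 119.4 CPM, with the next at 209.3. *Per3* in control replicate 2 was at 90.0 CPM, with the next at 61.0. *Per2* in control replicate 10, the library with the lowest depth and scaling factor, was at 15.2 CPM, with the next at 28.1.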

How the results depend on the processing

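Across all 24 libraries, the calls of 2 clock genes lower and 0 higher came out alike with DESeq2 size factors, the DESeq2 test, limma-voom, no filter on low counts and edgeR's default filter. Library totals gave 0 lower and 1 higher (3827 genes higher and 226 lower over all genes), with *Per2* at 0.012 and *Dbp* at 0.13, and 0 clock genes with an effect that differed between the sets, as did DESeq2 size factors (0). With library totals the edgeR interaction of 1 clock gene (*Per1*) had an unadjusted p under 0.05. At least 10 counts in every library gave 1 lower (1226 genes higher), an adjusted p up to 0.05 alone 4 lower (3709 genes higher, 3388 lower), and a log2 fold change over 1 gave 0 lower (216 genes lower). Libraries with *Xist* above 1000 counts gave 0 lower (520 genes higher, 158 lower) and *Dbp* at 0.10, and those below gave 5 lower (1431 genes lower) and *Nr1d1* at -0.20. Leaving out 1 library gave 1 to 3 lower: 1 without FFD replicate 7, 9 or 10 or control replicate 4, and 3 without FFD replicate 3 or control replicate 6 or 10. Without both control replicate 10 and FFD replicate 9, a choice made after seeing the data, 1 was lower (*Cry1*). The replicate block gave 3 lower, with *Per3* added (-0.58, adjusted p = 0.0073), and 2063 genes higher and 844 lower over all genes. It changed no other clock gene's call, and the set of libraries as a covariate added *Per3* as well. Of the 8 pairs, 4 were correlated at an adjusted p up to 0.05 and 3 with library totals, and 0 genes differed in spread under every setting tried. Low counts limit *Arntl* (14 to 75 per library), *Arntl2* (1 to 41), *Npas2* (0 to 29) and *Hspa1a* (2 to 116). Where a setting moved a call, the cause was not tested beyond the fewer genes or libraries it used.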
